A study of Saccharomyces cerevisiae with 12 samples.

Results

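The 81 genes described here encode the proteins of the large (60S) subunit of the cytosolic ribosome of Saccharomyces cerevisiae. They are the 76 RPL genes (RPL and a number, with or without the letter A or B) and the 5 RPP genes of the acidic stalk (RPP0, RPP1A, RPP1B, RPP2A and RPP2B), chosen by their SGD symbol alone from 7126 features measured in every library, so no measured value entered the choice. Mitochondrial MRPL genes were not included. All 81 passed the filter of a mean of at least 1 RPKM (reads scaled to exon length and library size) that 5956 of the 7126 features passed. They lie on 14 chromosomes, 53 of them have an intron, and 70 form 35 pairs of A and B copies while 11 exist as 1 copy.

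RNA depleted of ribosomal RNA was sequenced from MATα cells of the W303 background grown in SC medium at 24 °C to mid-log phase, as 3 biological replicates in each of 4 groups. The WT strain carries the ade2-1, can1-100 and his3-11 alleles together with the trp1-1 allele, ura3-1 and a leu2 allele. The 3 deletion strains are labelled epl1∆ sds3∆ (epl1∆::kanMX with sds3∆::natMX), esa1∆ sds3∆ (esa1∆::HIS3 with sds3∆::natMX) and esa1∆ epl1∆ sds3∆, which joins all 3 deletions. ESA1 encodes the histone acetyltransferase of the NuA4 complex, EPL1 the subunit that holds Esa1 in the piccolo form of NuA4, and SDS3 a subunit of the Rpd3L histone deacetylase, so each comparison with WT asks how expression differs in cells labelled as living without Esa1, Epl1 or both when SDS3 is deleted too. There is no group with sds3∆ alone, so what the other deletions add cannot be told apart from sds3∆. WT also differs from the other strains in the marker genes kanMX, natMX and HIS3.

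Ribosomal protein genes are among the most highly transcribed genes of a growing yeast cell, and their output is matched to growth through the TOR and protein kinase A pathways. At most of them the factor Rap1 binds upstream and recruits Fhl1, Ifh1 and Hmo1, and Esa1 has been located at these promoters by others. Each protein joins the ribosomal RNA at a set step of assembly in the nucleolus, the nucleoplasm or, for the last few, the cytoplasm.

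The RPKM values imply totals of 8089179 to 14527280 reads per library. Whether these totals count only reads assigned to features is not given. Each of the 81 genes had 153 to 41395 reads per library. Levels below are RPKM divided by a median-of-ratios factor per library and are called scaled RPKM. ESA1 was at 1.74% and 1.17% of its WT mean in the libraries labelled esa1∆ sds3∆ and esa1∆ epl1∆ sds3∆, and EPL1 at 6.99% and 14.2% in those labelled epl1∆ sds3∆ and esa1∆ epl1∆ sds3∆. SDS3 was at 58.9% to 65.3% of its WT mean in the libraries labelled sds3∆, so its reads did not fall to near 0, and the groups are named by their labels. Small nucleolar RNAs took 15.9% to 16.8% of the reads in WT and 25.6% to 27.8% in the other libraries, and protein-coding genes 64.6% to 65.5% and 53.2% to 56.7%. WT replicate 2 stood apart from the other WT libraries in ribosomal protein genes: its level over the mean of WT replicates 1 and 3 had a median log2 of 0.55 over the 81 genes (79 higher), 0.60 over the 56 RPS genes of the small subunit (56 higher) and 0.012 over all features tested. The main counts below are therefore given with and without that library.

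The RPL and RPP genes were higher as a group in all 9 libraries of the deletion strains than in the WT libraries. Their summed level was 47846, 72136 and 48345 scaled RPKM in WT replicates 1, 2 and 3. It was 87458, 80965 and 89781 in epl1∆ sds3∆, 87590.1, 87627 and 84554 in esa1∆ sds3∆, and 77904, 74541 and 79724 in esa1∆ epl1∆ sds3∆. No library of the deletion strains overlapped WT, but WT replicate 2 came close to the lowest esa1∆ epl1∆ sds3∆ library. As a share of all protein-coding RPKM, which needs no scaling factor, the genes took 9.63% ± 1.40 in WT, 13.8% ± 0.243 in epl1∆ sds3∆, 13.5% ± 0.740 in esa1∆ sds3∆ and 13.02% ± 0.474 in esa1∆ epl1∆ sds3∆ (SD, n = 3 each). The plot of summed levels shows the same order for RPS genes.

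**Figure D1:**
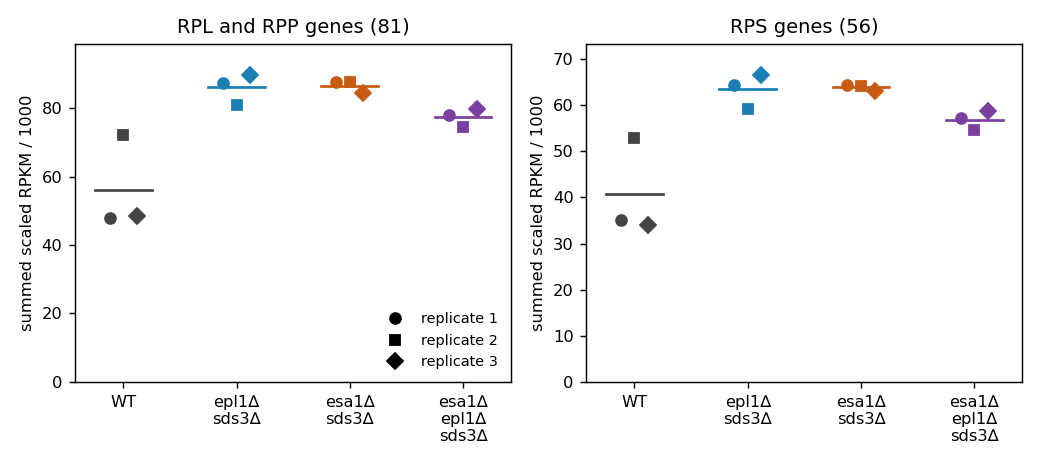
Summed scaled RPKM (vertical axis, divided by 1000) of the 81 RPL and RPP genes (left) and the 56 RPS genes (right) in each library by strain label, with a line at the mean of the 3 replicates. WT replicate 2 (square) sits at 72136 on the left, above the other WT libraries and just below the lowest esa1∆ epl1∆ sds3∆ library at 74541.

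Tested gene by gene with limma over all features and Benjamini-Hochberg adjustment (called at an adjusted p under 0.05), 68 of the 81 genes rose and 0 fell in epl1∆ sds3∆, where 30.1% of all features tested were called higher and 30.0% lower. In esa1∆ sds3∆ also 68 rose and 0 fell, against 30.0% of features called higher and 29.7% lower. In esa1∆ epl1∆ sds3∆ 55 rose and 0 fell, against 30.1% and 29.3%. The median log2 fold change over the 81 genes was 0.69, 0.65 and 0.48 in that order, where the median over all features tested was -0.0063, -0.0064 and 0.0032. Counting only genes whose 3 libraries all lay above all 3 WT libraries gave 57, 58 and 48 of the 81, where 30.4%, 31.0% and 32.1% of all features did so. These comparisons share the WT libraries, so they are not independent of each other.

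Leaving out WT replicate 2 raised the counts to 78, 78 and 73 genes called higher, with 0 called lower, and the medians to 0.87, 0.82 and 0.71. The share of all features called higher was then 29.6%, 29.6% and 29.3%. On RPKM as deposited, where the median of all features moved to -0.24, -0.24 and -0.18, the counts were 57, 52 and 42 higher and 2, 2 and 4 lower. With quantile normalization, they were 49, 45 and 42 higher and 3, 3 and 4 lower. The median of the 81 genes stayed above 0 in all 3 comparisons under both scalings.

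**Figure D2:**
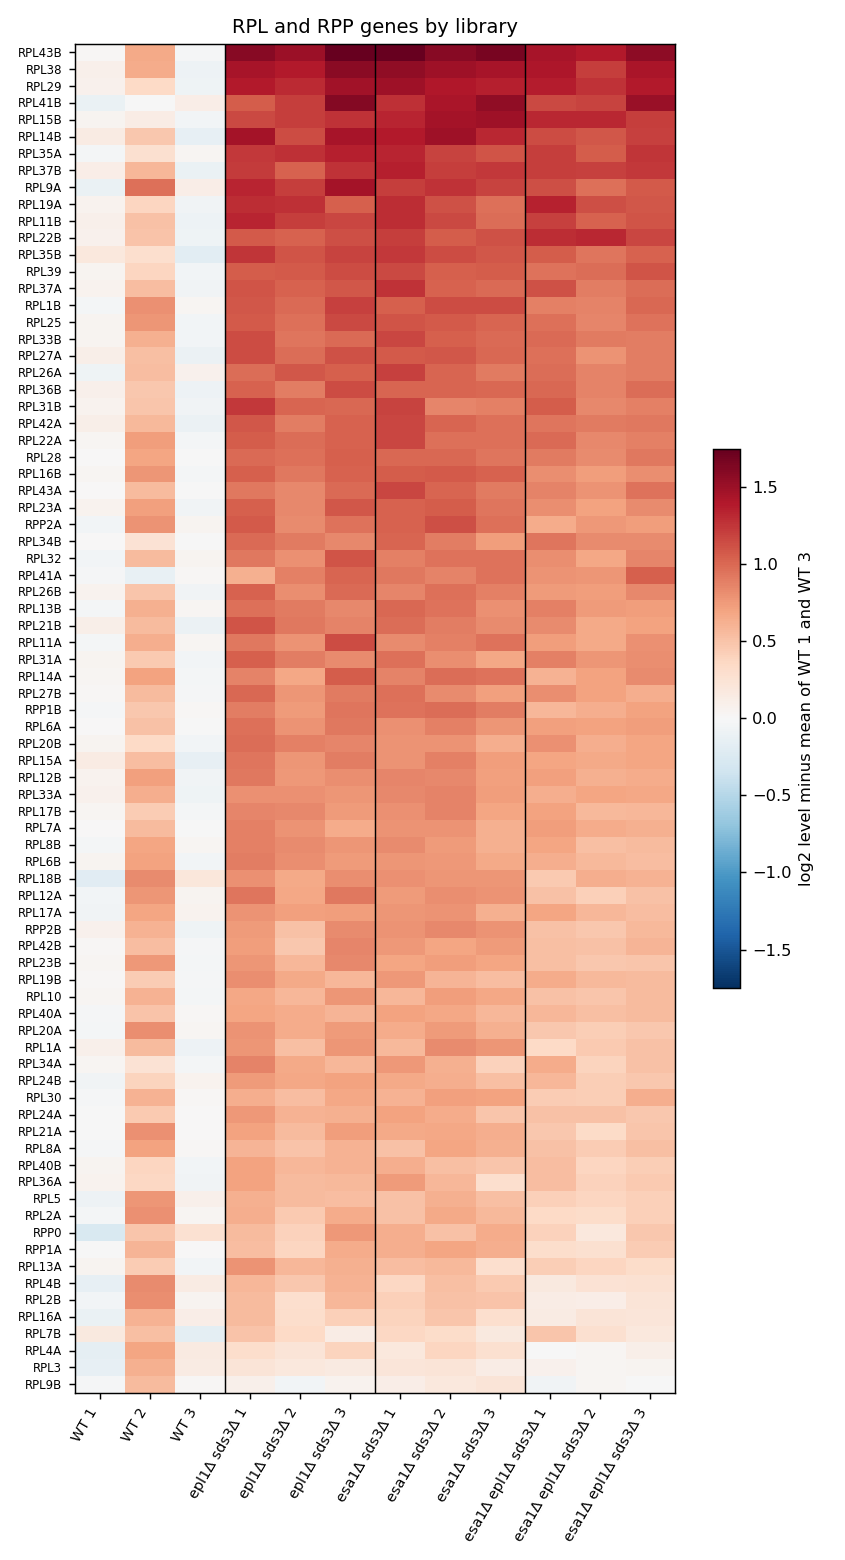
Level of 80 of the 81 genes (rows) in each of the 12 libraries (columns) as log2(scaled RPKM + 1) minus the mean of WT replicates 1 and 3, ordered by the mean of the 9 libraries of the deletion strains. WT replicate 2 is above the other WT libraries for all genes drawn except RPL41A and RPL41B.

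The largest rises were in RPL43B, RPL41B, RPL29 and RPL38 in epl1∆ sds3∆ and in RPL43B, RPL41B, RPL15B and RPL29 in the other strains. RPL43B, the lesser copy of its pair in WT, was at 251, 394 and 244 scaled RPKM in WT, 748, 699.7 and 835 in epl1∆ sds3∆, 852, 748 and 788 in esa1∆ sds3∆ and 673, 651 and 735 in esa1∆ epl1∆ sds3∆. All 9 libraries of the deletion strains were above all 3 WT libraries. Its log2 fold changes were 1.39 (SE 0.16, adjusted p = 1.03e-05), 1.46 (SE 0.16, adjusted p = 7.29e-06) and 1.24 (SE 0.16, adjusted p = 2.32e-05) by limma.

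RPL38, a short single-copy gene, was at 966, 1430.3 and 852 scaled RPKM in WT and at 2457, 2379 and 2705 in epl1∆ sds3∆, 2654, 2528 and 2468 in esa1∆ sds3∆ and 2413, 2101 and 2445 in esa1∆ epl1∆ sds3∆. The groups did not overlap, and its log2 fold changes were 1.25 (SE 0.16, adjusted p = 2.19e-05), 1.27 (SE 0.16, adjusted p = 1.91e-05) and 1.13 (SE 0.16, adjusted p = 4.60e-05) by limma. RPL29, another short single-copy gene, whose product is not essential for growth, was at 779, 939 and 703 in WT, where replicate 2 was only slightly higher, and at 1938, 1839 and 2052, 2069, 1958 and 1909 and 1917, 1772 and 1945 in the 3 deletion strains in the same order. It rose by 1.28, 1.30 and 1.23 on the log2 scale, at adjusted p of 9.87e-07, 8.80e-07 and 1.27e-06 by limma.

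RPL15B, the lowest of the 81 genes in WT, had the smallest adjusted p in every comparison with WT. It was at 17.5, 18.6 and 16.4 scaled RPKM in WT, so replicate 2 did not stand apart here, and at 39.1, 40.6 and 42.0 in epl1∆ sds3∆, 44.1, 48.3 and 49.0 in esa1∆ sds3∆ and 43.8, 43.9 and 40.7 in esa1∆ epl1∆ sds3∆. Its log2 fold changes were 1.17 (SE 0.084, adjusted p = 3.26e-07), 1.38 (SE 0.084, adjusted p = 8.50e-08) and 1.24 (SE 0.084, adjusted p = 1.65e-07) by limma. The other copy, RPL15A, had a WT mean of 1126 scaled RPKM and shares an identical run of 116 bases with RPL15B. How reads that match both were assigned is not given, so the level of RPL15B is uncertain. RPL35A, for a protein beside the exit of the peptide tunnel, had log2 fold changes of 1.20, 1.11 and 1.08 and adjusted p of 1.23e-06, 2.55e-06 and 2.77e-06 by limma. Its copy RPL35B had 1.08, 1.06 and 0.92.

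By role in the subunit, the genes of the peptidyl transferase centre and core had the lowest medians, at 0.24, 0.19 and -0.081. These genes are also long, with 666 to 1164 exon bases, and fold changes were smaller in longer genes (below). Whether role matters apart from length was not tested. RPL3, which lies next to the catalytic centre and is the longest of the 81 genes with 1164 exon bases, was at 1571, 2657 and 1909 scaled RPKM in WT, 2019, 1975 and 1939.8 in epl1∆ sds3∆, 2004, 2030.2 and 1899 in esa1∆ sds3∆ and 1832, 1772 and 1798 in esa1∆ epl1∆ sds3∆. Its WT libraries spanned all the others, and its log2 fold changes of -0.014 (SE 0.15, adjusted p = 0.939), -0.015 (SE 0.15, adjusted p = 0.935) and -0.15 (SE 0.15, adjusted p = 0.392) did not pass by limma. RPL4A and RPL4B, whose protein lines the peptide tunnel, had log2 fold changes of 0.077, 0.051 and -0.19 for the A copy and 0.28, 0.17 and -0.048 for the B copy, none past the threshold.

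RPL2A and RPL2B, whose protein is needed for peptide bond formation, had log2 fold changes of 0.31, 0.31 and 0.093 and of 0.20, 0.21 and -0.11, none past the threshold. RPL10, one of the last proteins to join and close to the transfer RNA sites, rose in epl1∆ sds3∆ and esa1∆ sds3∆, with log2 fold changes of 0.47 (SE 0.14, adjusted p = 0.0114) and 0.47 (SE 0.14, adjusted p = 0.0128) against 0.31 (SE 0.14, adjusted p = 0.0744) in esa1∆ epl1∆ sds3∆ by limma, but with quantile normalization its values were -0.040, -0.14 and -0.10. In all, 1, 1 and 0 of the 6 genes of this group rose. On RPKM as deposited 0 were called higher and 1, 1 and 3 lower, and with quantile normalization 0 higher and 2, 2 and 3 lower. Without WT replicate 2, 5, 5 and 2 rose, so that library decides most of these calls, while RPL3 passed in none of the 3 comparisons, at 0.19, 0.19 and 0.056.

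The P stalk, the flexible arm of acidic proteins that recruits the translation factors, has RPP0 and the 2 copies of RPL12 at its base and RPP1A, RPP1B, RPP2A and RPP2B on top. RPP1A, RPP2B and RPP0 of the stalk were, with RPL3 and RPL10, the 5 genes with the highest levels in WT. RPP1A, RPL3, RPP2B, RPL10 and RPP0 had WT means of 2216, 2046, 2012, 1884 and 1798 scaled RPKM, with SDs of 563, 556, 521, 487 and 447 (n = 3). Neighbours in this order differed by less than these SDs. The SDs include the rise in WT replicate 2 that these genes share, and the order within libraries was not tested. Of the 7 stalk genes, 6, 7 and 3 rose in epl1∆ sds3∆, esa1∆ sds3∆ and esa1∆ epl1∆ sds3∆, with medians of 0.59, 0.57 and 0.32. Without WT replicate 2, 7, 7 and 6 rose. The count was 4, 4 and 1 on RPKM as deposited. With quantile normalization 1, 1 and 0 rose, and RPP1A and RPP0 then lay below WT in all 3 comparisons.

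RPP1A was at 1879.6, 2867 and 1903 scaled RPKM in WT, 2758, 2459 and 2962 in epl1∆ sds3∆, 2947, 3063 and 2938 in esa1∆ sds3∆ and 2334, 2297 and 2563 in esa1∆ epl1∆ sds3∆. WT replicate 2 lay inside the range of epl1∆ sds3∆, below esa1∆ sds3∆ and above esa1∆ epl1∆ sds3∆, and only the rise in esa1∆ sds3∆ passed, at 0.46 (SE 0.14, adjusted p = 0.0152), against 0.32 (SE 0.14, adjusted p = 0.0682) and 0.14 (SE 0.14, adjusted p = 0.417) in the others by limma. RPP1B rose in all 3 strains, with log2 fold changes of 0.70, 0.79 and 0.48, as did RPP2A with 0.69, 0.78 and 0.45. RPP2B had 0.49, 0.60 and 0.32 and RPP0, to which the stalk dimers attach, 0.41, 0.44 and 0.19, the last of each not past the threshold.

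RPL12A and RPL12B, whose protein binds the stalk base beside Rpp0, had log2 fold changes of 0.59, 0.53 and 0.22 and of 0.59, 0.57 and 0.43, of which only RPL12A in esa1∆ epl1∆ sds3∆ did not pass (adjusted p = 0.278, limma). In the 5S RNP, the particle of 5S RNA with the proteins Rpl5 and Rpl11, RPL11A and RPL11B rose in every comparison, with 0.74, 0.68 and 0.52 for the A copy and 1.07, 0.96 and 0.93 for the B copy. RPL5 did not pass, with log2 fold changes of 0.32 (SE 0.17, adjusted p = 0.117), 0.30 (SE 0.17, adjusted p = 0.142) and 0.14 (SE 0.17, adjusted p = 0.473) by limma. It was at 899, 1633 and 1015 scaled RPKM in WT, where replicate 2 exceeded every library of the deletion strains, and without that library it passed in all 3, at 0.57, 0.55 and 0.40.

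Around the exit of the peptide tunnel, where chaperones and targeting factors dock, 12, 12 and 11 of 12 genes rose, with medians of 0.83, 0.81 and 0.70. Without WT replicate 2 all 12 rose in each comparison. The range ran from 0.52 to 1.20 in epl1∆ sds3∆, from 0.49 to 1.11 in esa1∆ sds3∆ and from 0.37 to 1.08 in esa1∆ epl1∆ sds3∆. RPL39 and RPL25 are named for their known position and were picked with their values seen. RPL39, for the small protein that lines the exit itself, was at 1385, 1739 and 1293 scaled RPKM in WT and 2781, 2806 and 2957, 2992, 2754 and 2794 and 2578, 2639.6 and 2879 in the deletion strains in the same order, with no overlap. RPL25, whose protein is the docking site of the signal recognition particle and of the nascent chain complex, was at 1036, 1704 and 966 in WT and between 1801 and 2229.5 in the 9 other libraries.

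Of the 8 genes whose proteins join the particle late or in the cytoplasm (RPL10, RPL24A, RPL24B, RPL40A, RPL40B, RPL42A, RPL42B and RPP0), 8, 8 and 6 rose, with medians of 0.51, 0.47 and 0.36, and 8, 8 and 7 without WT replicate 2. On RPKM as deposited 6, 4 and 1 rose, and with quantile normalization 2, 2 and 1. RPL10 and RPP0 were counted above as well. RPL40A and RPL40B, which are made as fusions of ubiquitin to the ribosomal protein, rose in all 3 comparisons, with log2 fold changes of 0.48, 0.49 and 0.38 and of 0.51, 0.43 and 0.33. With quantile normalization neither passed in any of them, with RPL40A at -0.010, -0.024 and 0.016 and RPL40B at 0.19, 0.083 and 0.11. RPL40A passed in epl1∆ sds3∆ and esa1∆ sds3∆ and RPL40B in epl1∆ sds3∆ alone on RPKM as deposited. Of the 47 genes with no such role assigned here, 41, 40 and 33 rose, with medians of 0.73, 0.71 and 0.55.

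**Figure D3:**
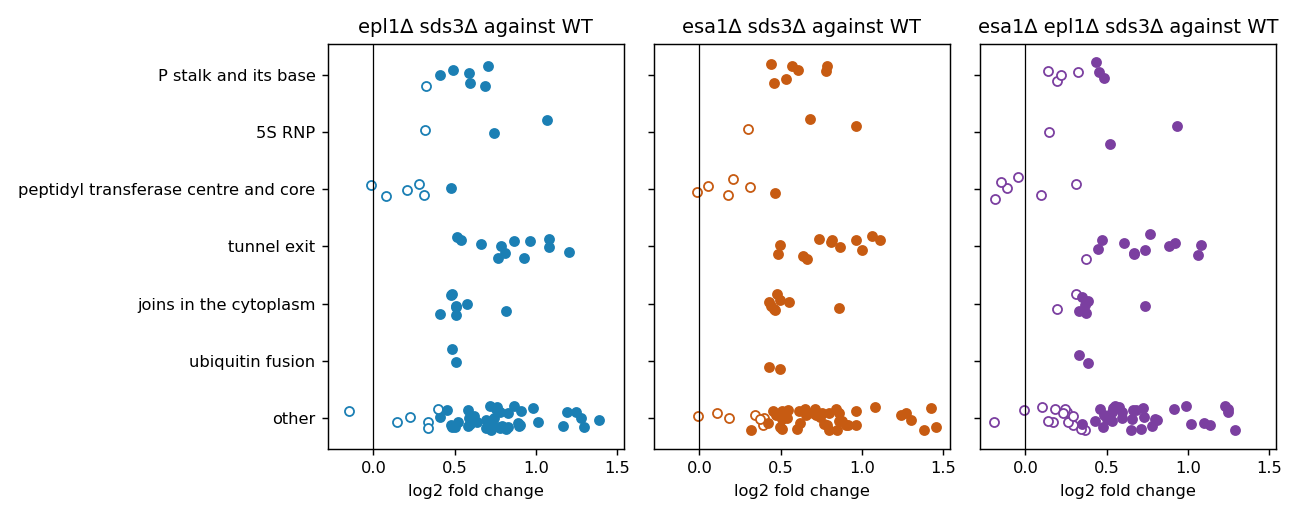
Log2 fold change against WT (horizontal axis) of each gene by role group, 1 panel per deletion strain. Filled points passed an adjusted p of 0.05 and open points did not. All points of the tunnel exit lie at 0.37 or higher, while those of the peptidyl transferase centre and core lie between -0.19 and 0.47.

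RPL9B was lower than WT in all 3 fits without passing in any. It was at 410.2, 609.8 and 422 scaled RPKM in WT, 442, 401 and 435 in epl1∆ sds3∆, 450.2, 471 and 487 in esa1∆ sds3∆ and 400.1, 424 and 414 in esa1∆ epl1∆ sds3∆. WT replicate 2 was above all other libraries, and the rest lay between 400.1 and 487. Its log2 fold changes were -0.15 (SE 0.13, adjusted p = 0.336), -0.010 (SE 0.13, adjusted p = 0.949) and -0.20 (SE 0.13, adjusted p = 0.213) by limma, and 0.033, 0.17 and -0.012 without WT replicate 2. RPL9B and RPL3 were called lower in all 3 comparisons on RPKM as deposited, where the median of all features lies below 0. RPL7B also passed in no comparison, with log2 fold changes of 0.15 (SE 0.16, adjusted p = 0.439), 0.11 (SE 0.16, adjusted p = 0.574) and 0.14 (SE 0.16, adjusted p = 0.473) by limma.

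At the low end, RPL15B, RPL22B, RPL18B, RPL14B and RPL7B had WT means of 17.5, 43.3, 62.8, 82.1 and 82.6 scaled RPKM, with SDs of 1.11, 9.56, 23.5, 17.7 and 20.2 (n = 3). RPL15B stood below the others beyond their spread, while the remaining neighbours overlapped.

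The log2 fold change was larger in shorter genes. Over the 81 genes, the log2 fold change correlated with the log2 of the summed exon length at Pearson r = -0.58, -0.64 and -0.63 (Spearman -0.54, -0.58 and -0.57) in epl1∆ sds3∆, esa1∆ sds3∆ and esa1∆ epl1∆ sds3∆. These are descriptions across genes measured in the same libraries, and genes are not independent replicates. Without WT replicate 2 r was -0.50, -0.56 and -0.57. The 9 genes under 300 exon bases all rose in the 3 comparisons, with medians of 0.98, 1.08 and 1.02. Of the 4 genes of 900 to under 1200 bases, 1, 1 and 0 rose, with medians of 0.18, 0.11 and -0.099.

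Among other protein-coding features of the same length, with the RPS genes left out as well, the medians spanned less. They were 0.072, 0.13 and 0.14 under 300 bases and -0.10, -0.059 and -0.056 at 900 to under 1200 bases. The 53 genes with introns and the 28 without had medians of 0.72 and 0.59 in epl1∆ sds3∆, 0.70 and 0.55 in esa1∆ sds3∆, and 0.54 and 0.36 in esa1∆ epl1∆ sds3∆. The log2 WT level was related less, at r = -0.29, -0.25 and -0.33. Fragment lengths and the share of degraded RNA were not available here, and their part in the relation with length was not tested.

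**Figure D4:**
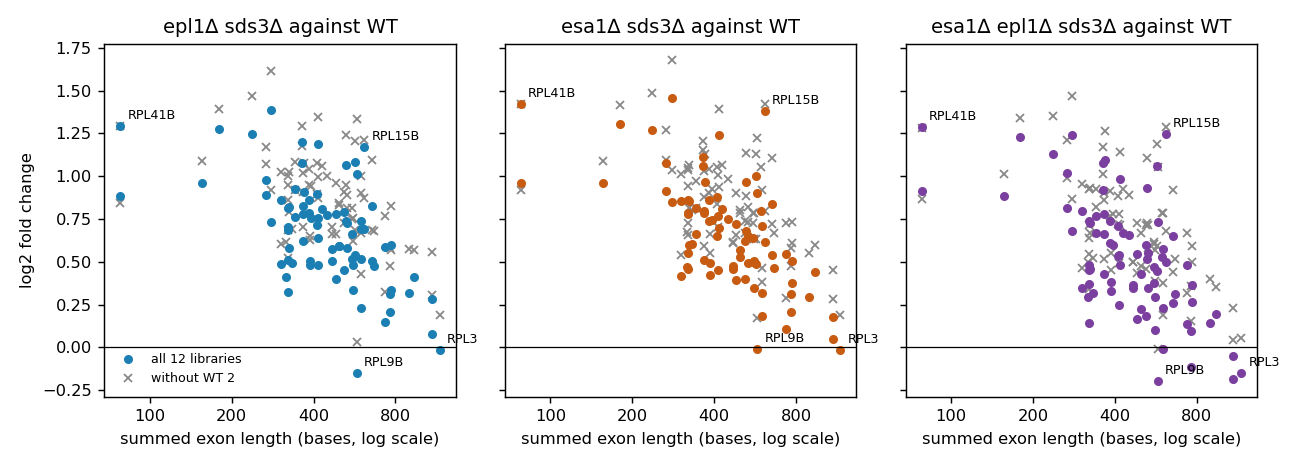
Log2 fold change against WT (vertical axis) of each of the 81 genes by summed exon length in bases (horizontal, log scale), fitted with all 12 libraries (dots) and without WT replicate 2 (grey crosses). Dots fall from RPL41B, at 78 bases, to RPL3, at 1164 bases, and the crosses of the longer genes lie above their dots.

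The 2 copies of a protein's gene did not move equally in most pairs. A ratio of the A to the B copy within a library needs no scaling between libraries, and the 9 libraries of the deletion strains were set against the 3 of WT with a 2-sided exact permutation test over the 220 splits, whose smallest p is 0.00455. Of 35 pairs, 28 had an adjusted p under 0.05 (Benjamini-Hochberg over the 35 pairs), with 9 shifted toward the A and 19 toward the B copy. No share over ratios of other genes stands beside this count, so it describes these pairs only. In the limma fit of epl1∆ sds3∆ against WT, 30.1% of all features were called higher and 30.0% lower. In 22 of the 35 pairs the ratio moved toward the copy that was lower in WT. The same WT libraries set both the lower copy and the shift, so this count is a description only. In 20 pairs all 9 libraries lay on one side of all 3 WT libraries. Among the 24 RPS pairs, 17 did (70.8%), so such shifts are not particular to the RPL and RPP pairs. The median size of the shift was 0.28 on the log2 scale over the RPL and RPP pairs and 0.36 over the RPS pairs.

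RPL9, for a protein near the base of the stalk, had the largest shift. Its log2(A/B) was -0.21, 0.30 and -0.018 in WT replicates 1 to 3, between 1.13 and 1.28 in epl1∆ sds3∆, between 0.85 and 0.98 in esa1∆ sds3∆ and between 0.82 and 1.07 in esa1∆ epl1∆ sds3∆. RPL9A thus made up 50.4% ± 4.46 of the pair in WT and 69.5% ± 1.21, 65.7% ± 1.17 and 65.9% ± 1.99 in the deletion strains (SD, n = 3), a shift of 1.00 that was higher in 9 of 9 libraries (exact permutation p = 0.00455, adjusted 0.00795). The A copy rose while the B copy did not: RPL9A was at 355, 751 and 417 scaled RPKM in WT and had log2 fold changes of 1.01, 0.90 and 0.73.

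RPL15, RPL43, RPL19 and RPL16 followed, with shifts of -0.71, -0.61, 0.56 and -0.56, each without overlap and each with the same exact permutation p of 0.00455. RPL15A made up 98.4% of its pair in WT and 97.3% to 97.8% in the other strains, RPL43A 73.2% against 63.4% to 64.9%, RPL19A 36.1% against 44.7% to 46.4%, and RPL16A 39.3% against 29.7% to 31.2%. RPL40, RPL24 and RPL12 shifted least, by 0.034, -0.035 and -0.084, with exact permutation p of 0.468, 0.414 and 0.300 (adjusted 0.468, 0.426 and 0.318). In 18 pairs the A copy was higher in all 12 libraries, in 13 the B copy, and in 4 the higher copy was not the same throughout.

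The coding sequences of the copies are 69.2% to 99.4% identical (median 93.2%), and 25 pairs share an identical run of at least 50 bases and 12 one of at least 100. How reads that match both copies were assigned is not given in the sources used here, so the level of single copies is uncertain in those pairs. The extreme case is RPL41, the shortest protein of the ribosome, shown here because its copies differ at 1 of 78 bases. The difference, in capitals, is C9T from A to B, counted from 1 at the start codon, and both genes lie on the minus strand of chromosome IV (sacCer3 as in the RefSeq R64 genome, chrIV:130407-130484 and chrIV:221724-221801).
RPL41A: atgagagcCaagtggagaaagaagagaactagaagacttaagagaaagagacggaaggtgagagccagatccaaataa
RPL41B: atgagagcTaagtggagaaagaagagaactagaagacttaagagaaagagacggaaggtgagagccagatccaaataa
RPL41A was at 723, 667 and 739.6 scaled RPKM and RPL41B at 1139.6, 1229 and 1331 in WT, and all reads within the coding sequence that miss base 9 match both. These 2 genes were also those in which WT replicate 2 was not the highest WT library.

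**Figure D5:**
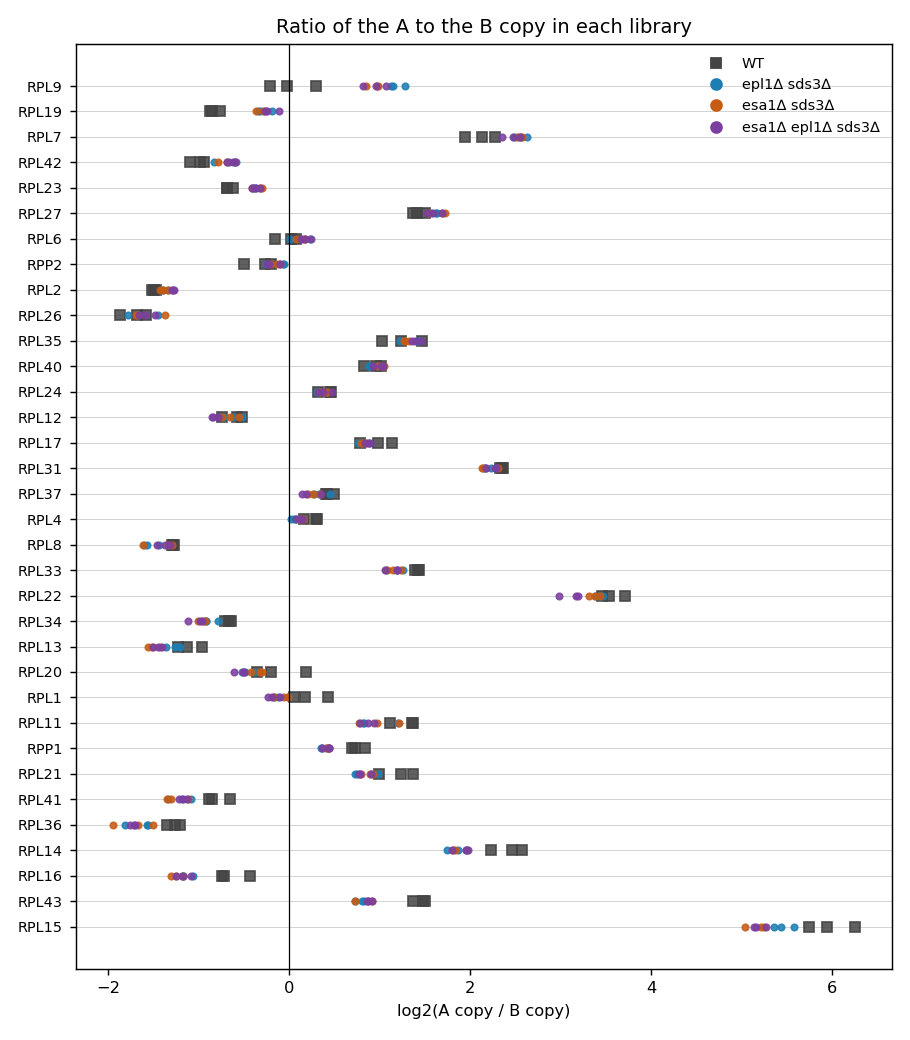
Log2 of the A over the B copy (horizontal axis) in each library for 34 of the 35 pairs, ordered by the shift between the 9 libraries of the deletion strains (circles) and WT (squares). RPL9 at the top moved from near 0 to about 1.02, RPL15 at the bottom from 5.98 to 5.27.

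Upstream of the genes, the Rap1 core ACCCNNACA was present in the 500 bases before the start codon of 36 of the 81 genes (44.4%, both strands), against 328 of 5986 protein-coding promoters of that length (5.48%) and 18 of the 56 RPS promoters. Of the 36 genes with this core 34, 33 and 30 rose, with median log2 fold changes of 0.74, 0.72 and 0.56, and of the 45 without it 34, 35 and 25 rose, with medians of 0.60, 0.60 and 0.38. Genes with the core had a median WT level of 494 scaled RPKM and those without 668. The 4 genes of 900 to under 1200 exon bases (RPL3, RPL4A, RPL4B and RPP0) are all among those without it. Whether the core matters apart from length was not tested. The Abf1 core, looked for by its published form, was in 14.8% of the genes and 22.7% of all promoters, and CGGGTAA (Reb1), AAAAATTTT (RRPE), GATGAG (PAC) and AAACTTT (Sfp1) were in 6.17%, 12.3%, 22.2% and 24.7% against 10.1%, 9.47%, 28.3% and 19.7%. None of these strings contains another, and a match is a string of letters, not a bound site.

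RPL29 and RPL15B, which were among the largest rises, hold no Rap1 core in the bases searched. Windows around the core are shown for RPL43B, RPL35A and RPL38, which rose in every comparison with WT. They are also shown for RPL9A, the copy that rose in the most shifted pair, and for RPL2B, which did not pass. The core (or, in RPL9A, its reverse complement) is in capitals, with the genomic position in sacCer3. The windows read 5′ to 3′ on the strand of the gene.
RPL43B, chrX:608001-608039: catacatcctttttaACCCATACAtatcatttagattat
RPL35A, chrIV:117357-117395: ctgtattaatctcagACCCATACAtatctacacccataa
RPL38, chrXII:781625-781663: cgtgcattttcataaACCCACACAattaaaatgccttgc
RPL9A, chrVII:228616-228654: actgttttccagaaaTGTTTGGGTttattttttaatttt
RPL2B, chrIX:316339-316377: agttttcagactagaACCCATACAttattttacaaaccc
The cores of RPL43B and RPL35A and the first of 2 in RPL2B are the same 9 letters, at 289, 292 and 414 bases before the start codon, while the genes' log2 fold changes in epl1∆ sds3∆ were 1.39, 1.20 and 0.20. RPL9A holds a core and its less changed partner RPL9B holds none in this window, but pairs with a core in only 1 copy went both ways. RPL43 and RPL19 hold it in the B copy alone. The log2 ratio of A to B moved toward that copy in RPL43 (-0.61) and away from it in RPL19 (0.56).

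RPL7A and RPL7B, the only genes with 2 introns, host the small nucleolar RNAs snR39 and snR59. RPL7A was at 309.9, 454 and 307 scaled RPKM in WT and rose, with log2 fold changes of 0.59 (SE 0.14, adjusted p = 0.00264), 0.54 (SE 0.14, adjusted p = 0.00431) and 0.48 (SE 0.14, adjusted p = 0.00886) by limma, while RPL7B, at 80.4, 104 and 63.7, did not pass. snR39, in the intron of RPL7A, was at 114 ± 21.8 scaled RPKM in WT and 197 ± 41.3, 189.6 ± 34.9 and 187 ± 14.8 in the deletion strains, from 112 to 254 reads per library (SD, n = 3). snR59, in the intron of RPL7B, rested on 5 to 14 reads per library, too few to show a change at this depth. The exon lengths behind the deposited RPKM leave introns out. Whether reads in introns were counted for the host genes was not tested.

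The other genes of the pathway were taken from lists chosen with earlier results of these data known, and SQT1, TIF6, AFG2, RAP1 and HMO1 were named after their values were seen. Of the 56 RPS genes 48, 48 and 36 rose, with medians of 0.66, 0.66 and 0.53, and 56, 56 and 54 without WT replicate 2. With quantile normalization 37, 29 and 29 rose and 3, 2 and 5 fell. Of 7 dedicated chaperones of large subunit proteins and 5S RNP factors, 6 rose in each comparison, with medians of 1.41, 1.30 and 1.39. RRS1, which with Rpf2 brings the 5S RNP into the pre-ribosome, rose from 12.4 ± 5.28 scaled RPKM in WT to 70.1 ± 2.05, 63.8 ± 4.12 and 59.9 ± 9.05 (SD, n = 3). Acl4, the chaperone of Rpl4, and Rrb1, that of Rpl3, serve proteins whose own genes moved little: ACL4 rose from 9.72 ± 2.52 to 26.0 ± 1.45, 24.9 ± 2.47 and 26.5 ± 0.614, and RRB1 from 21.8 ± 5.97 to 60.7 ± 5.43, 57.3 ± 1.38 and 59.1 ± 2.45. SQT1, for the chaperone of Rpl10, did not pass, with log2 fold changes of 0.064, 0.11 and 0.0011.

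Of 19 factors of late 60S maturation and export found among 21 listed, 16, 15 and 16 rose, with medians of 1.33, 1.13 and 1.21. BUD20, for an export factor, rose by 2.31, 2.25 and 2.41 on the log2 scale and RLP24, for the placeholder of Rpl24, by 1.86, 1.85 and 1.82. TIF6, whose product keeps the 2 subunits apart until maturation ends, did not pass, with -0.082, -0.12 and -0.31, and AFG2, for the ATPase that removes Rlp24, fell by 0.41, 0.47 and 0.51 (adjusted p = 0.0202, 0.00991 and 0.00665, limma). Without WT replicate 2 AFG2 did not pass in epl1∆ sds3∆ (adjusted p = 0.0685, limma).

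Of 15 regulators of ribosomal protein genes 14 passed the filter on level, and 7, 5 and 6 rose and 5, 5 and 5 fell. Of all features, 30.1%, 30.0% and 30.1% were called higher and 30.0%, 29.7% and 29.3% lower. Whether this short list differs from those shares was not tested. Without WT replicate 2 the counts were 5, 6 and 6 higher and 3, 5 and 3 lower. TOD6, for a repressor that binds the PAC motif, rose from 3.67 ± 0.670 scaled RPKM in WT to 22.2 ± 1.33, 17.6 ± 2.28 and 18.9 ± 0.517 (SD, n = 3), and IFH1, for the coactivator at ribosomal protein promoters, from 3.97 ± 0.740 to 8.47 ± 0.813, 7.71 ± 0.618 and 9.40 ± 0.566. SFP1, an activator that responds to TOR, rose by 0.68, 0.56 and 0.59 on the log2 scale. TOR1, for a TOR kinase, fell by 0.62, 0.61 and 0.65. RAP1 and HMO1 themselves were at log2 fold changes between -0.014 and 0.12, none past the threshold.

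Between the deletion strains, 0 of the 81 genes was called in any of the 3 comparisons by limma, where 0.185% (esa1∆ sds3∆ against epl1∆ sds3∆), 0.134% (esa1∆ epl1∆ sds3∆ against epl1∆ sds3∆) and 0.0504% (esa1∆ epl1∆ sds3∆ against esa1∆ sds3∆) of all features were. At an unadjusted p under 0.05 there were 1, 1 and 2 genes, and with voom on recovered reads 0 adjusted and 1, 2 and 2 unadjusted. The median log2 difference was -0.0075 between the first pair of strains, with 44 of 81 genes lower. It was -0.16 and -0.14 for the strain labelled with all 3 deletions against the others, with 77 of 81 genes lower in each. No single gene passed, the largest differences being -0.37 ± 0.17 (SE) in RPL12A against epl1∆ sds3∆ and -0.32 ± 0.17 in RPP2A against esa1∆ sds3∆ (limma, adjusted p = 0.765 and 0.771). On RPKM as deposited the medians for that strain were -0.11 and -0.089, and with quantile normalization -0.074 and -0.011.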

How the data were processed

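The deposited files give RPKM, 1 value per feature and library. Adapters, alignment and counting are not described in the labels. Of tools, STAR, Bowtie 0.12.2 and cutadapt are named in the submitters' processing notes, with the builds sacCer3 and mm8, none with a role. RPKM times the summed exon length (introns left out) gave whole reads, within 0.02, for 99.7% to 99.8% of values of genes without introns, and the total of 8089179 to 14527280 reads per library comes from these steps. Feature names were matched to the sacCer3 annotation of RefSeq (6162 of 7126).

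RPKM were divided by median-of-ratios factors, log2 transformed after adding 1, and fitted with limma 3.58.1 in R 4.3.3 (all 12 libraries, trended variance, Benjamini-Hochberg over the 5956 features averaging 1 RPKM or more), so a fold change is on the log2(value + 1) scale and slightly understates low genes. The fit was also run on simulated data with a fixed spread, known changes in few features and no WT library set apart. That setting is simpler than these data, so no conclusion is drawn from it. Ratios of A to B copies were tested by exact permutation, 2-sided, in Python 3.11.15. Coding sequences were aligned with Biopython 1.88. Named are the genes with the 4 smallest adjusted p and the 4 largest and 4 smallest fold changes per comparison with WT, the 5 highest and lowest WT levels, small role groups in full, the 5 most and 3 least shifted pairs and up to 4 genes per pathway list. The genes and lists were chosen with earlier results of these data known. From the values alone, same-numbered libraries of esa1∆ sds3∆ and WT deviated together above a correlation of 0.1 for each replicate number (0.124, 0.125 and 0.182). The correlations were 0.289, -0.0798 and 0.260 in epl1∆ sds3∆ against WT. They were 0.156, 0.0504 and 0.187 in esa1∆ epl1∆ sds3∆ against WT, so shared deviations were not confined to 1 comparison. The fit reported did not pair them in any comparison, so its p-values do not account for this. Pairing by number entered only through the replicate block, an alternative. Alternatives were other scalings, pseudocounts of 0.1 and 5, other filters, voom on the recovered reads, a fit of only 2 groups, a replicate block, and leaving out each library. P-values of the limma fits measure the spread between the labelled biological replicates. Those of the A to B ratios come from splits of all 12 libraries, with the 9 libraries of the 3 deletion strains pooled as 1 group. Precision of single copies depends on how shared reads were assigned. A single gene and its pair, which are part of every count, are not reported on their own here.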

Additional observations from a re-analysis of the deposited data

Results flagged for a closer look

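In RPL2B all 3 libraries labelled esa1∆ epl1∆ sds3∆ lay below the mean of the WT libraries on the log2(scaled RPKM + 1) scale, and all libraries of the other deletion strains above it. The mean log2 difference from WT was 0.20 in epl1∆ sds3∆ and 0.21 in esa1∆ sds3∆ against -0.11 in esa1∆ epl1∆ sds3∆, so the strains differed by 0.32 and 0.32. RPL4B did the same, at 0.28 and 0.17 against -0.048, with differences of 0.33 and 0.22. The WT mean includes WT replicate 2, and without it all 3 strains were above WT in both genes. Tested directly between the strains, neither gene passed (limma, see the count of 0 called genes above).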

How the results depend on the processing

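Against WT, genes called higher ranged over 61 to 78, 57 to 78 and 44 to 73 when single libraries were left out in epl1∆ sds3∆, esa1∆ sds3∆ and esa1∆ epl1∆ sds3∆, the highest without WT replicate 2, and the medians over 0.58 to 0.87, 0.55 to 0.82 and 0.38 to 0.71. Genes called lower numbered 0 to 2 in esa1∆ epl1∆ sds3∆, the 2 without WT replicate 1. Quantile normalization gave 45 genes higher and a median of 0.27 in esa1∆ sds3∆, and 3, 3 and 4 genes lower in the 3 comparisons. RPKM as deposited gave 2, 2 and 4 lower. The other settings planned kept each count of higher genes within 1.5 times. Between the deletion strains, leaving out single libraries moved the medians over -0.055 to 0.014, -0.20 to -0.13 and -0.17 to -0.12. For the comparisons of esa1∆ epl1∆ sds3∆ with the other deletion strains, RPKM as deposited gave -0.11 and -0.089 and quantile normalization -0.074 and -0.011. The number of pairs with a shifted ratio was 21 to 28 over the libraries left out, 27 with the replicate block and 28 with 1 RPKM added, and the shift of RPL40 ran from -0.018, without WT replicate 1, to 0.074. With the replicate block 69, 71 and 58 genes were called higher against WT and 0 in each comparison between the deletion strains, so it moved no count by over 1.5 times. In esa1∆ sds3∆ against WT, where same-numbered libraries deviated together for each replicate number, the genes it added were RPL20A, RPL21A and RPL8A. On RPKM as deposited the sign turned for RPL7B, RPL4A, RPL16A and RPL2B at -0.11, -0.18, -0.031 and -0.055 in epl1∆ sds3∆. In esa1∆ sds3∆ under this scaling it turned for RPL4B, RPL7B, RPL4A, RPL16A and RPL2B at -0.080, -0.14, -0.20, -0.073 and -0.047. In esa1∆ epl1∆ sds3∆ under this scaling it turned for RPP1A, RPP0, RPL7B, RPL5, RPL20A, RPL21A and RPL2A at -0.065, -0.013, -0.066, -0.062, -0.023, -0.039 and -0.11. With quantile normalization it turned for RPP1A, RPL4B, RPL30, RPL10, RPP0, RPL5, RPL4A, RPL40A, RPL16A and RPL2B at -0.066, -0.081, -0.11, -0.040, -0.10, -0.16, -0.32, -0.010, -0.072 and -0.27 in epl1∆ sds3∆. In esa1∆ sds3∆ under this scaling it turned for RPP1A, RPL4B, RPL30, RPL10, RPP0, RPL5, RPL4A, RPL40A, RPL16A and RPL2B at -0.076, -0.21, -0.13, -0.14, -0.17, -0.19, -0.39, -0.024, -0.14 and -0.27. In esa1∆ epl1∆ sds3∆ under this scaling it turned for RPP1A, RPP2B, RPL30, RPL10, RPP0, RPL5, RPL20A, RPL21A, RPL12A and RPL2A at -0.19, -0.042, -0.13, -0.10, -0.24, -0.22, -0.061, -0.064, -0.00071 and -0.094. Over the single libraries left out, the fold changes that crossed 0 in epl1∆ sds3∆ were RPL4A (-0.11 to 0.31), RPL3 (-0.19 to 0.19), RPL9B (-0.25 to 0.033), RPL7B (-0.024 to 0.32). The fold changes that crossed 0 in esa1∆ sds3∆ were RPL4B (-0.038 to 0.45), RPL4A (-0.14 to 0.28), RPL3 (-0.19 to 0.19), RPL9B (-0.11 to 0.17), RPL7B (-0.063 to 0.29). The fold changes that crossed 0 in esa1∆ epl1∆ sds3∆ were RPP0 (-0.017 to 0.35), RPL5 (-0.029 to 0.40), RPL2A (-0.056 to 0.36), RPL4B (-0.26 to 0.23), RPL3 (-0.32 to 0.056), RPL4A (-0.38 to 0.044), RPL16A (-0.17 to 0.19), RPL2B (-0.27 to 0.16), RPL7B (-0.034 to 0.31). Among genes called in the fit reported, RPL10, RPL30, RPL40A and RPP0 (in epl1∆ sds3∆ and esa1∆ sds3∆) and RPP1A (in esa1∆ sds3∆) turned, each under quantile normalization alone. The cause of these turns was not tested. Single copies are limited by shared reads, and snR59 by depth.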
